A study of Homo sapiens with 2 samples.

Results

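The genes described here are YAP1 and WWTR1, the transcription factor genes TEAD1, TEAD2, TEAD3 and TEAD4, and the target genes CCN1, CCN2, ANKRD1 and AMOTL2. They were chosen by name, and make up 10 of the 19974 protein-coding genes on chromosomes 1 to 22 and X in the RefSeq table used here. Binding of KDM1B, a flavin-dependent histone lysine demethylase also called LSD2, was mapped by chromatin immunoprecipitation and sequencing (ChIP-seq). The cells were MDA-MB-231, a widely used cell line derived from triple-negative breast cancer. Both libraries, 1 anti-FLAG ChIP and 1 input, came from cells with stable expression of 3xFLAG KDM1B from the retroviral vector pOZ. The signal is therefore that of a tagged protein added to the cells' own KDM1B, and no library from cells without the tag was analysed here. Neither sample received a treatment. The comparison is 1 library against 1 library, so no value has a replicate error and no difference has a test. Because the data are DNA binding only, expression of the cell line's defining markers could not be checked.

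YAP1 and WWTR1 (which encodes TAZ) are related transcriptional coactivators that have no DNA-binding domain of their own. When the kinases of the Hippo pathway are inactive, YAP and TAZ enter the nucleus and bind TEAD proteins, which recognise the DNA element GGAATG through their TEA domain. CCN1 and CCN2 (older symbols CYR61 and CTGF) encode secreted matricellular proteins, ANKRD1 encodes an ankyrin repeat protein, and AMOTL2 encodes an angiomotin-like scaffold that binds YAP. All are widely used as readouts of YAP and TEAD activity. MDA-MB-231 is known for a loss of NF2, an upstream activator of the Hippo kinases, and for strong YAP and TAZ activity.

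The deposited list held 78536 peaks with a median width of 804 bp and a median log2 ratio of ChIP over input of 2.99 (quartiles 2.58 and 3.52). Read counts behind the ratios, and so sequencing depth, are unknown. The linear ratio of 9719 peaks (12.4%) equalled a whole number times a step of 2.64 shared by the list. This form would result from an input count of 1, among others. Such peaks are named below where the highest ratio or the rank of a gene leans on them.

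All 10 genes had at least 1 peak with its midpoint inside the gene or up to 5 kb away, against 67.5% of all protein-coding genes. They held 83 peaks, 71 inside the genes and 12 in the flanks. The median log2 ratio of these 83 peaks was 3.07, near that of the whole list, and 45 of them stood at or above the list's median. A midpoint within 1 kb of either gene end was found in 8 of the 10, all but WWTR1 and ANKRD1, against 41.9% of all protein-coding genes. Peaks were spread unevenly. TEAD4 had 28 and TEAD1 had 23, AMOTL2 had 10, and the other 7 genes had 2 to 5 each. Of the 83 peaks, 14 also lay in or within 5 kb of another protein-coding or lncRNA gene and cannot be assigned to the member alone.

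**Figure D1:**
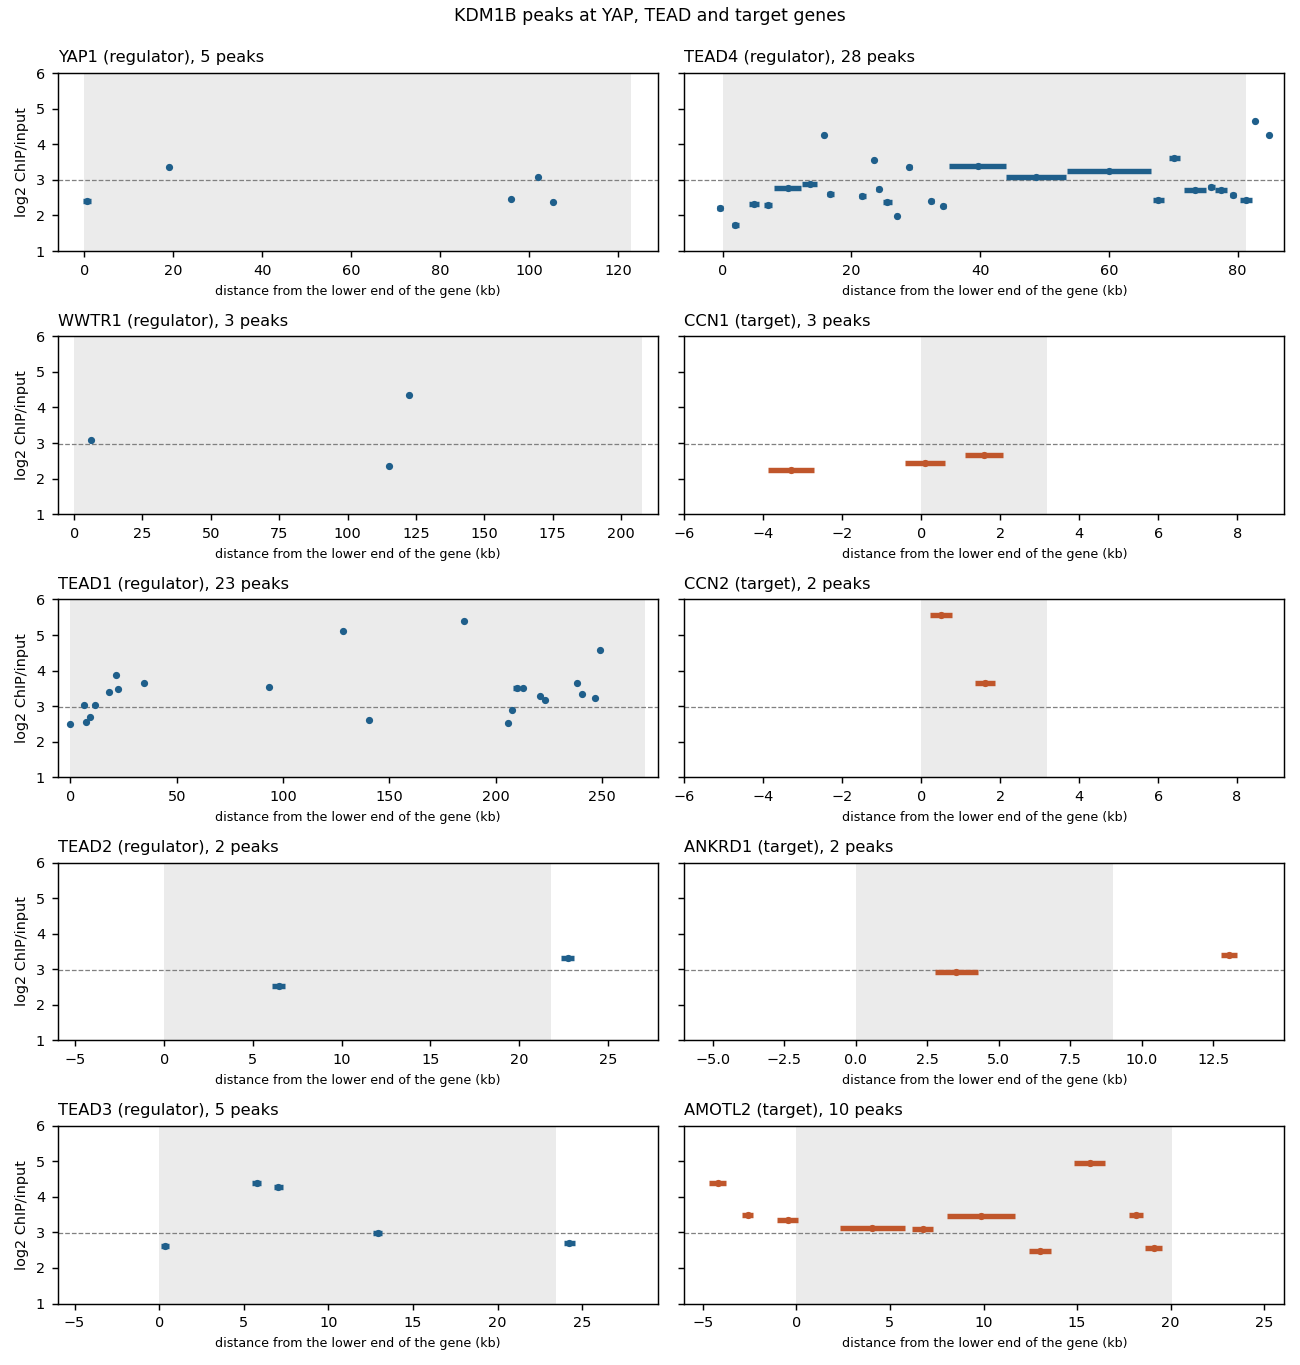
Each panel shows the KDM1B peaks of 1 gene. The horizontal axis is the distance from the lower-coordinate end of the gene in kb, the vertical axis is the log2 ratio of ChIP over input, dots mark peak midpoints, bars span the peak width, grey marks the gene and the dashed line is the median of the whole list (2.99). TEAD4 carries 3 peaks of 8.93 to 13.2 kb, while the 2 peaks of CCN2 are narrow and lie above the dashed line.

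The coactivator genes YAP1 and WWTR1 are long and held few peaks, in numbers and coverage somewhat above the middle for their length. YAP1 (chromosome 11, 102110447 to 102233424, hg38, 123 kb) had 5 peaks that covered 3.22% of the gene and its flanks. Their log2 ratios were 2.42, 3.36, 2.47, 3.07 and 2.37 in order of position, so 3 of the 5 lay below the median of the list. The first, 1866 bp wide at 102110165 to 102112031, spanned the annotated start of the gene and its divergent lncRNA gene YAP1-DT. The second lay 19.1 kb into the gene, the next 76.3 kb held no peak, and the last 3 lay 96.0 to 105.3 kb from the start. WWTR1 (chromosome 3, 149517235 to 149724788, 208 kb) had 3 peaks covering 1.03%, with log2 ratios of 3.09, 2.36 and 4.34. None was near an annotated start. The strongest, at 149639329 to 149640378, lay 18.2 kb downstream of the nearer of the 2 starts listed for this gene, and 108 kb of the gene held no peak. Protein-coding genes of 0.8 to 1.2 times the length of each gene served as its reference, with ties split evenly. By peak number YAP1 stood at the 62.3rd percentile of 1315 such genes and WWTR1 at the 54.4th of 770. By percent covered they stood at the 63.7th and 55.1st, where the medians of genes of like length were 1.59% and 0.872%. By strongest ratio, with genes without a peak ranked lowest, YAP1 stood at the 39.0th percentile and WWTR1 at the 65.8th.

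The TEAD genes encode close paralogs, and differed far more in their coverage than YAP1 and WWTR1. TEAD4 (chromosome 12, 2959397 to 3040676, 81.3 kb) had 28 peaks covering 71.2% of the gene and its flanks, and 76.3% of the gene alone. The 3 peaks nearest its lower end also lay within 5 kb of the lncRNA gene LOC124902859. Its percentile was 97.0 by peak number and 98.9 by percent covered. Of 1567 genes of like length, 18 were covered as much or more, and over all protein-coding genes it ranked 220th by percent covered. Coverage of 50% or more was found in 4.74% of all protein-coding genes, and among the members in TEAD4 and AMOTL2.

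Much of the TEAD4 signal lay in wide peaks of moderate height. Peaks of 8.93, 9.31 and 13.2 kb, with log2 ratios of 3.38, 3.09 and 3.24, followed each other at 2994521 to 3026014 with gaps of 25 and 31 bp. Together they made up 48.4% of the covered bases. Only 1113 of all listed peaks were 5 kb or wider, and the widest TEAD4 peak ranked 149th in the list. When peaks within 1 kb of each other were joined, 12 of the 28 merged into a block of 49.0 kb, and 8 regions remained. The median log2 ratio of the 28 peaks was 2.72, below that of the list, with a range of 1.73 to 4.65. The highest value belonged to a peak of 500 bp, the smallest width in the list, 1.36 kb beyond the upper end of the gene. TEAD4 thus stood out by the extent of its peaks more than by their height. Its strongest ratio was at the 78.4th percentile, with genes without a peak ranked lowest. Of genes of like length, 78.9% had a peak.

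High coverage at TEAD4 stopped close to the upper end of the gene. In the 50 kb beyond the 5 kb flank, a distance chosen after the values were seen, peaks covered 6.20% on the upper side, towards TSPAN9, and 24.2% on the lower side, which holds TULP3. In bins of 10 kb counted from the lower end, the gene was covered by 50.7 to 99.8% in each of its first 8 bins, and by 42.4% in the bin that holds its upper end. Coverage in the next bin was 2.18%, and in the bin just before the gene 9.48%. Further below the gene, the bins at 80 to 100 kb were covered by 84.1 and 90.4%.

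**Figure D2:**
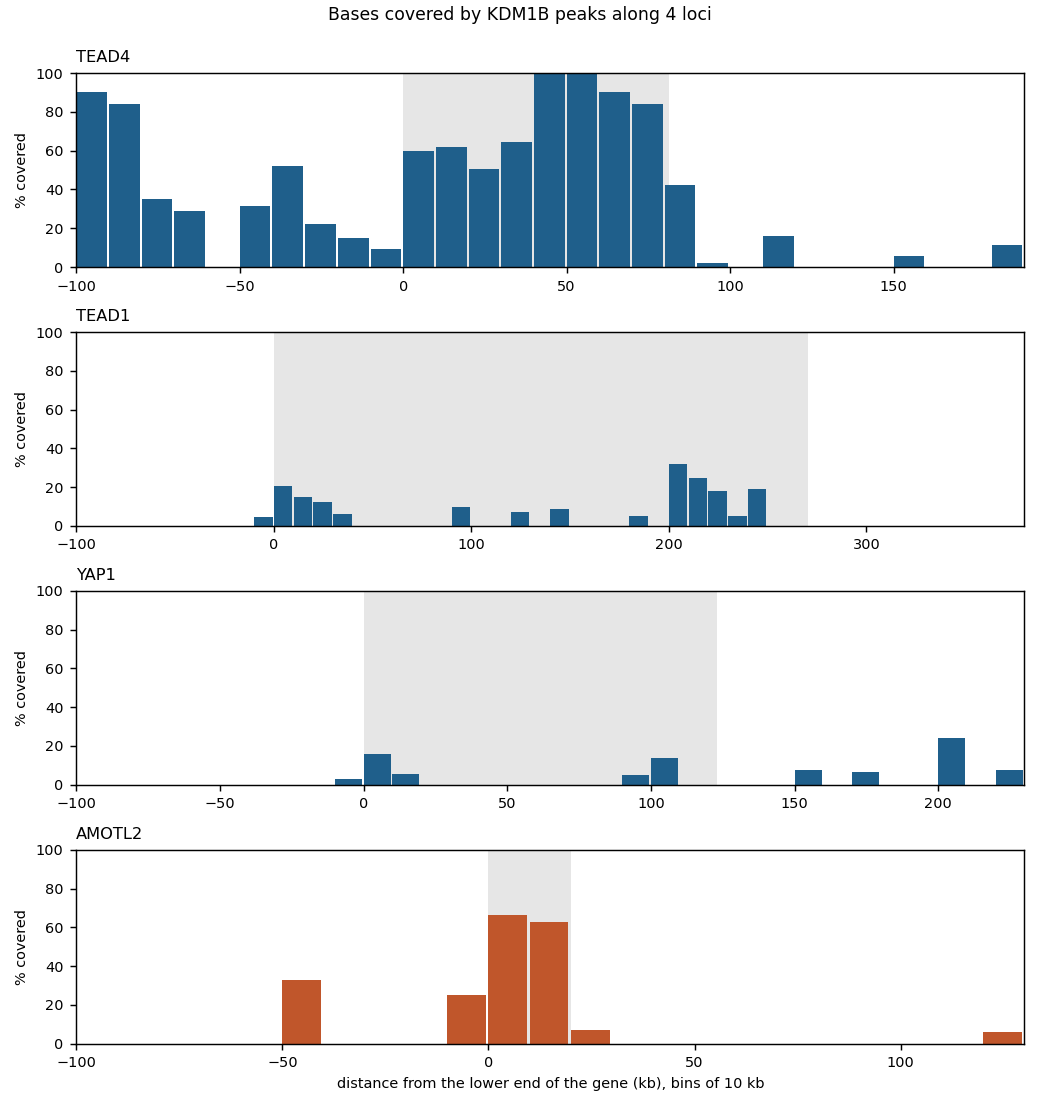
Bars give the percent of bases covered by KDM1B peaks in bins of 10 kb, plotted against the distance in kb from the lower-coordinate end of TEAD4, TEAD1, YAP1 and AMOTL2, with 100 kb or more on each side. Grey marks the gene. Coverage reaches 99.8% in TEAD4 and falls to 2.18% in the bin after it, while TEAD1 shows 2 separate groups of low bars.

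TEAD1 (chromosome 11, 12674421 to 12944737, 270 kb) had the second highest number of peaks, 23, which covered 6.72%. That put it at the 92.4th percentile by number and the 91.5th by percent covered among 576 genes of like length, whose median was 2 peaks. Its peaks fell into separate groups. From 5 kb before the lower end to 40 kb into the gene there were 9, between 200 and 250 kb there were 10, and the stretch from 40 to 200 kb held 4. These limits were set by hand for this gene, so the split only describes its peaks. The last 2 peaks of TEAD1 also lay within 5 kb of the lncRNA gene TEAD1-AS1. No peak was listed in the 50 kb windows outside the flanks. The peaks had a median width of 669 bp, less than the 1129 bp at TEAD4, and a median log2 ratio of 3.35 and 17 of 23 at or above the median of the list. The highest ratios, 5.40 at 12859192 to 12859692 and 5.10 at 12802274 to 12802990, lay alone in the sparse middle. Both were whole multiples of the step, 16 and 13 times it, and the input counts behind them are unknown.

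TEAD2 and TEAD3 are shorter genes with few peaks. TEAD3 (chromosome 6, 35473597 to 35497079, 23.5 kb) had 5 peaks with log2 ratios of 2.62, 4.40, 4.28, 2.99 and 2.71 and 8.14% coverage. It stood at the 68.4th percentile by number and the 84.4th by strongest ratio. The neighbouring peaks of 4.40 and 4.28 were separated by 749 bp inside the gene. The peak of 4.40 was 8 times the step and that of 2.99 was 3 times it. Without whole multiples TEAD3 kept 3 peaks, and its percentile by number was 60.1. The last peak lay 756 bp upstream of the TEAD3 start, also near TULP1 and the lncRNA gene LOC124901309, and the first lay at the other end of the gene, within 5 kb of the ribosomal protein gene RPL10A. TEAD2 (chromosome 19, 49340595 to 49362416, 21.8 kb) had 2 peaks with log2 ratios of 2.52 inside the gene and 3.33 at 916 bp upstream of its outer start, the latter also near DKKL1. At the 49.2nd percentile of 2065 genes, TEAD2 was the only member below the middle by peak number.

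The target genes CCN1 and CCN2 are nearly equal in length and carried peaks of different kinds. CCN1 (chromosome 1, 85580761 to 85583950, 3.19 kb) had 3 weak peaks, each wider than the list's median of 804 bp. Their widths were 1168, 1008 and 965 bp and their log2 ratios 2.23, 2.44 and 2.67, all below the median of the list. The second, at 85580353 to 85581361, covered the lower end of the gene and the third lay in its middle, so that 49.1% of the gene was covered. All 3 peaks also lay within 5 kb of the neighbouring gene DDAH1, and the first 2 within 5 kb of the lncRNA gene LOC124904208. CCN1 stood at the 83.9th percentile by peak number among 838 genes of like length, and at the 32.9th when only peaks at or above the median ratio were counted, since none of its peaks was left.

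CCN2 (chromosome 6, 131948176 to 131951372, 3.20 kb) had 2 narrow peaks of 542 and 505 bp with log2 ratios of 5.57 and 3.67. The first, at 131948404 to 131948946, was the strongest of all 83 and put CCN2 at the 98.7th percentile by strongest ratio. It was 18 times the step, and its input count is unknown. Without whole multiples, CCN2 kept 1 peak and stood at the 60.8th percentile by number, after 73.9 with all peaks. Both peaks lay inside the gene, 2.70 and 1.59 kb downstream of its annotated start, and both also lay in or within 5 kb of the antisense gene CCN2-AS1. The list gives no strand, so signal belonging to either gene cannot be told apart.

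ANKRD1 (chromosome 10, 90912096 to 90921087, 8.99 kb) had 1 peak inside the gene, at 90914855 to 90916382 with a log2 ratio of 2.91, and 1 at 4.06 kb upstream of its start with 3.40. Coverage was 10.9%, and its percentile by number was 60.8 among 1630 genes. The peak of 3.40 was 4 times the step. Without whole multiples ANKRD1 kept 1 peak, and its percentile by number was 51.2. AMOTL2 (chromosome 3, 134355345 to 134375417, 20.1 kb) was the most densely covered target. Its 10 peaks had log2 ratios from 2.48 to 4.95, 8 of them at or above the median of the list, and covered 51.0% of the gene and its flanks. They ran through the gene and beyond its far end, where 3 peaks lay 0.464, 2.62 and 4.20 kb outside. The highest, 4.95 at 134370163 to 134371856, was 1693 bp wide and no whole multiple of the step. AMOTL2 stood at the 92.7th percentile by number, the 93.3rd by percent covered and the 92.7th by strongest ratio among 2069 genes of like length, the only member above 90 in each. The 50 kb beyond its flanks were covered by 6.59% on the lower and 1.39% on the upper side, and no other protein-coding gene lies there.

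At the edge of the 5 kb limit, the outermost peaks counted were those of AMOTL2 at 4.20 kb and ANKRD1 at 4.06 kb. A further 6 peaks lay 5 to 10 kb from 5 of the members, the nearest at 5.61 kb from CCN1 with a log2 ratio of 4.72.

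**Figure D3:**
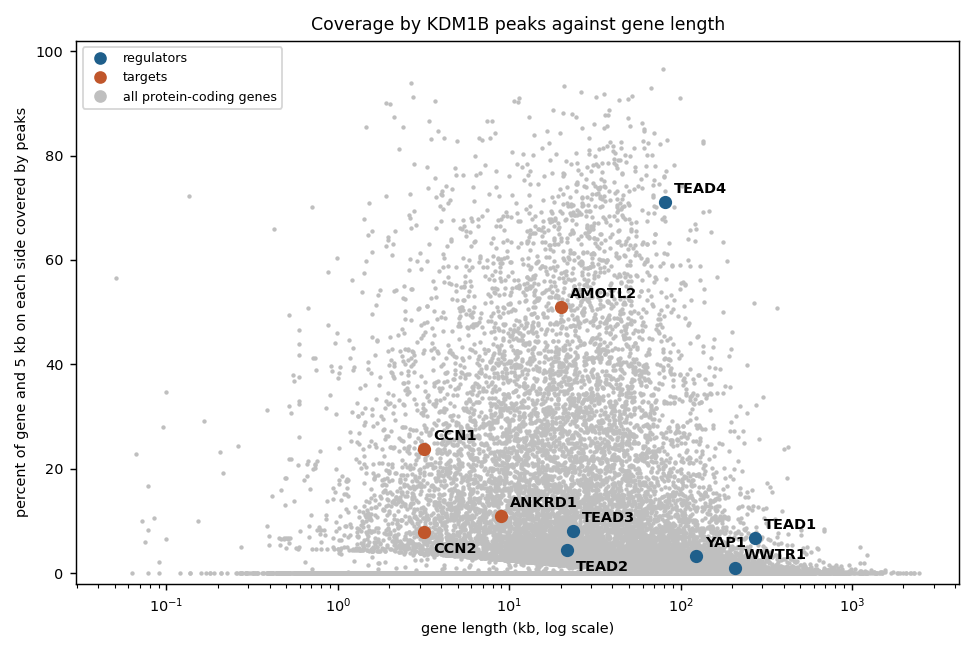
Each grey dot is a protein-coding gene, with its length in kb on a log axis and the percent of the gene and 5 kb on each side that peaks cover on the vertical axis. Regulators are blue and targets orange. TEAD4 (71.2%) and AMOTL2 (51.0%) stand high among genes of their length, and YAP1 (3.22%) and WWTR1 (1.03%) lie somewhat above the medians for theirs (1.59% and 0.872%).

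Side by side, the 6 regulators held 66 peaks in 787 kb of gene and flank, and the 4 targets 17 in 75.5 kb. This is 8.38 peaks per 100 kb (exact 95% Poisson interval 6.48 to 10.7) for the regulators and 22.5 (13.1 to 36.1) for the targets. The intervals cover counting error only and treat peaks as independent. Coverage was 12.0% and 28.6%. A large part of both values came from 1 gene in each group. Without TEAD4 the regulators fell to 5.46 peaks per 100 kb and 4.24% coverage, and without AMOTL2 the targets fell to 15.4 (6.20 to 31.8) and 13.8%. Each target is shorter than every regulator, the longest target being AMOTL2 (20.1 kb) and the shortest regulator TEAD2 (21.8 kb). The 5 kb flanks thus make up more of the targets' windows, so the groups were also compared by rank among genes of like length.

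By those ranks the groups overlapped. The percentiles by peak number ran from 49.2 to 97.0 for the regulators, with a median of 65.4, and from 60.8 to 92.7 for the targets, with a median of 78.9. Above the 50th percentile stood 5 of 6 regulators and 4 of 4 targets, and above the 75th 2 of each. In order, the genes were TEAD4 (97.0), AMOTL2 (92.7), TEAD1 (92.4), CCN1 (83.9), CCN2 (73.9), TEAD3 (68.4), YAP1 (62.3), ANKRD1 (60.8), WWTR1 (54.4) and TEAD2 (49.2). The order mixes both groups, and with the 5 kb flanks the top 3 places hold a target between regulators. Without flanks, CCN2 (96.4) and CCN1 (96.3) stood above TEAD4 (95.2), TEAD1 (92.3) and AMOTL2 (89.5). Over all settings CCN1 moved between 32.9 and 96.3 and CCN2 between 60.8 and 96.4. AMOTL2 moved between 89.4 and 98.0 and TEAD1 between 92.2 and 96.0. The order is therefore not settled, for neighbours or for genes further apart.

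**Figure D4:**
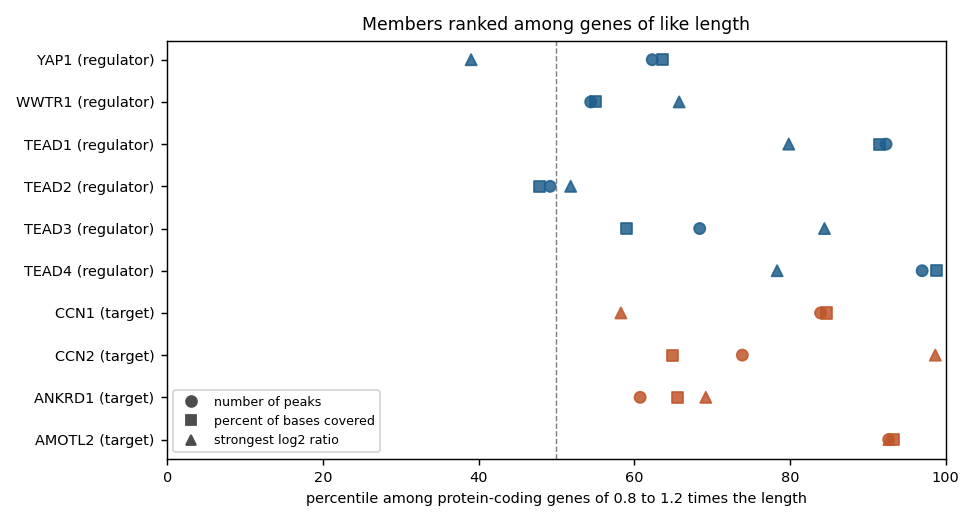
The horizontal axis is the percentile of each gene among protein-coding genes of 0.8 to 1.2 times its length. Circles rank the number of peaks, squares the percent covered and triangles the strongest log2 ratio, with genes without a peak ranked lowest. AMOTL2 is above 90 by all 3 measures, TEAD4 by number and coverage, and CCN2 (98.7) by strongest ratio.

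Promoters were compared with the peaks because the TEAD element is known in the promoters of the target genes. RefSeq windows from 250 bases before to 50 bases after the annotated start were given for 7 of the members in 10 windows (GRCh38.p14). TEAD1, TEAD4 and CCN1 had no entry. GGAATG or its reverse complement CATTCC was found in 4928 of all 35116 such windows (14.0%). This set is wider than the 22132 windows of protein-coding genes used below for peaks. The motif was found in 4 of the 10 member windows, 1 each for CCN2, ANKRD1, YAP1 and AMOTL2. The upstream 250 bases of these 4 are shown on the strand of the gene because they set the motif beside the peaks, with the motif in capitals.
CCN2, chr6:131951373-131951622, minus strand: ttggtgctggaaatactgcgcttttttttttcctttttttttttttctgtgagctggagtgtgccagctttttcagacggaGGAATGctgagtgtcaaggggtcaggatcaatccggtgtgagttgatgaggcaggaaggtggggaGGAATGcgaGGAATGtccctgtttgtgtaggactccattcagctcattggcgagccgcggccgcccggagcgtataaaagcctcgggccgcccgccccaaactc
ANKRD1, chr10:90921088-90921337, minus strand: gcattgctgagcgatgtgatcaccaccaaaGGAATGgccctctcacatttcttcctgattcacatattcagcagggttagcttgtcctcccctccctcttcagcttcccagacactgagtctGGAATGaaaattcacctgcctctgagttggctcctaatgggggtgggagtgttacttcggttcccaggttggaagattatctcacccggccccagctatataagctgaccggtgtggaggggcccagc
YAP1, chr11:102110197-102110446, plus strand: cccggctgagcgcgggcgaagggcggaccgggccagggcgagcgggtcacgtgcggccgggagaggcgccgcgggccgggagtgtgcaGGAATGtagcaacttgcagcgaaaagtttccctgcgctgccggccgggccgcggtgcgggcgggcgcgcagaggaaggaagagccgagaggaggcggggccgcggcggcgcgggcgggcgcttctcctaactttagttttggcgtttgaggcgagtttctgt
AMOTL2, inner start, chr3:134374448-134374697, minus strand: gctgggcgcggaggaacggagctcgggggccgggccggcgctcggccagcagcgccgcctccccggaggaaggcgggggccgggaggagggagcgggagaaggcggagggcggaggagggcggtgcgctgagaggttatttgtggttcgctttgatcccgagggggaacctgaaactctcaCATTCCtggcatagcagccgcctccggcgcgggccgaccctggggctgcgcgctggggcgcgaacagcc

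Among the members, the windows with most matches were not those under a peak. CCN2 held 3 matches, beginning 169, 104 and 95 bases upstream of the start, a number reached by 45 of all windows (0.128%). Its nearest peak ended 1289 bp away from the window, inside the gene. ANKRD1 held 2 matches, at 220 and 128 bases, and its nearest peak was 3538 bp away. The ANKRD1 window also matched TGANTCA, a pattern that takes in the AP-1 motif (searched as written, which is its own reverse complement). This pattern was found in 7.71% of all windows and in no other member window. The ANKRD1 match read TGATTCA and is not called an AP-1 site here. The windows of YAP1 (1 match, 162 bases upstream) and of the inner AMOTL2 start (1 match in the form CATTCC, 69 bases upstream) lay wholly within a peak, with log2 ratios of 2.42 and 2.55. These were the only 2 of the 10 windows with a peak, against 30.5% of 22132 windows of all protein-coding genes. TEAD1, TEAD4 and CCN1 had no window, so this count does not describe all members. Each of them had a peak across the lower-coordinate end of the gene. These peaks lay at 12673941 to 12674527 (TEAD1), 2958449 to 2959487 (TEAD4) and 85580353 to 85581361 (CCN1). The TEAD3 window missed its nearest peak by 193 bp and the outer TEAD2 window by 316 bp. A match describes the letters in the window and does not show that a TEAD protein binds there, and the list gives no summits.

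The rest of the pathway was described by 3 lists of other genes. The intervals given for these lists treat genes as independent, although all genes share 1 library pair, and are descriptive only. All 14 genes that act upstream of YAP, the Hippo kinases with their adaptors and activators, had a peak in the gene or within 5 kb (100%, exact 95% Clopper-Pearson interval 76.8 to 100%) against 67.5% of all protein-coding genes. Among genes of like length the share with a peak ran from 70.7% for TAOK2 to 80.5% for TAOK1. All 14 upstream genes also had a peak within 1 kb of a gene end, against 41.9% of all protein-coding genes. Their median percentile by peak number was 85.8, and all 14 stood above 50. FRMD6, a FERM domain protein, had 55 peaks (98.9th percentile), the kinase gene TAOK3 had 40 (96.4th) and the scaffold gene WWC1, which encodes KIBRA, had 32 (95.5th). SAV1, the adaptor of the MST kinases, with 3 peaks (51.0th), and the LATS cofactor gene MOB1B with 5 (61.5th) were lowest.

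Among 10 genes of TEAD cofactors and other binding partners, 6 had a peak (60%, interval 26.2 to 87.8%), near the 67.5% of all protein-coding genes. In genes of like length the share ran from 58.8% for VGLL2 to 80.6% for VGLL4. A gene-end peak was found in 2 of the 10 (20%, against 41.9%), and the median percentile was 61.2. RUNX1 (32 peaks, 96.1st), the phosphatase gene PTPN14, whose product binds YAP (29, 95.1st), and RUNX2 (13, 85.7th) were highest. VGLL1, VGLL2 and VGLL3, which encode TEAD cofactors, and AMOT had none. VGLL1 and AMOT lie on chromosome X, where 37.0% of 848 protein-coding genes had a peak.

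Among 18 further target genes 17 had a peak (94.4%, interval 72.7 to 99.9%) against 67.5% of all protein-coding genes. In genes of like length the share ran from 48.6% for FJX1 to 80.2% for ARHGAP29. A gene-end peak was found in 14 of the 18 (77.8%, against 41.9%), and the median percentile was 80.4. The membrane repair gene MYOF had 67 peaks over 63.4% of its length and flanks (99.8th percentile), the exchange factor gene DOCK5 had 58 (98.96th), and CRIM1 had 51 (98.2nd). FOXF2, a forkhead factor gene, had none, and CCDC80 had 2 (40.4th). The targets CCN1, CCN2, ANKRD1 and AMOTL2, with a median of 78.9, were close to the 80.4 of these further targets, and the regulators with 65.4 were lower than the 85.8 of the upstream genes. None of these differences was tested.

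**Figure D5:**
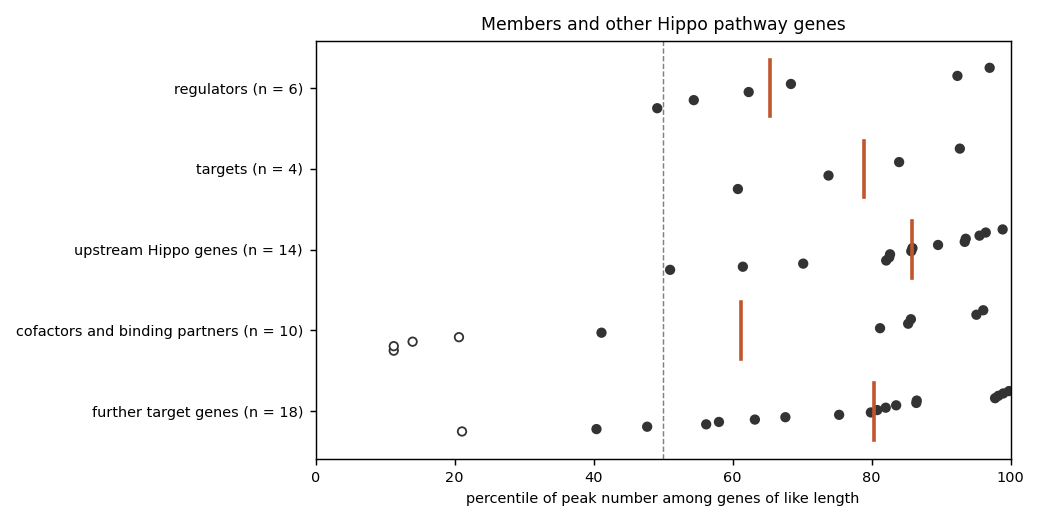
Each dot is a gene, placed by its percentile of peak number among protein-coding genes of like length, for the regulators, the targets and 3 lists of other Hippo pathway genes. Open dots are genes without a peak and orange bars are medians. All 14 upstream genes lie to the right of the dashed line at 50.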

How the data were processed

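Binding was measured in 1 ChIP and 1 input library of MDA-MB-231 cells. Trim Galore 0.4.5, Bowtie2 2.2.9 and hg38 are named in the submitters' processing notes. The peak caller and thresholds were not given in the sources used here. Each line of the deposited list holds a position and the authors' log2 ratio, ChIP over input, used here to describe and rank peaks. That it is log2 was settled from the values, and whole multiples were called within 0.0001 of a whole number. Start positions are printed as deposited.

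Gene spans came from RefSeq (GRCh38.p14) without exons, so exons, introns and untranslated regions were not assigned. Peaks were assigned by midpoint, with 5 kb on each side, and coverage was counted in bases, with Python 3.11.15, pandas 2.3.3 and SciPy 1.17.1. The counting was checked on simulated peaks. All members were named, and of each other list the 3 genes with the highest and 2 with the lowest percentile. Neighbours sharing a peak were named too. Members and lists were chosen with earlier results of these data known. Depth is unknown, so no interval covers the ratios.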

Additional observations from a re-analysis of the deposited data

How the results depend on the processing

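Of 11 alternatives for peaks and ranks, 7 changed how peaks were counted and 4 the reference genes. The number of members with a peak was 10 under each of the 7, except 9 with only peaks at or above the median ratio. With those peaks the regulators held 34 and the targets 11, and with peaks within 1 kb joined 40 and 10. TEAD2 crossed the 50th percentile by peak number in 5 of the 11 alternatives (43.9 to 66.7), and CCN1 in 1. TEAD4 fell to the 79.5th percentile by number when peaks were joined, and stayed between 97.6 and 99.2 by percent covered. The longer motif GGAATGT left 3 of 4 members with a match. No paired analysis was possible because each group held 1 library. The unknown read depth limits every ratio.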

Other observations

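The angiomotin and vestigial-like families held genes with and without peaks. Of the angiomotin genes, AMOTL1 had 16 peaks (85.3rd percentile by number among genes of like length) and AMOTL2 had 10, while AMOT, on chromosome X, had none. Of the vestigial-like cofactor genes, VGLL4 had 13 peaks (81.2nd percentile by number) with a strongest log2 ratio of 4.21, and VGLL1, VGLL2 and VGLL3 had none. AMOTL1 and VGLL4 were chosen after their values were seen. Expression of these genes was not measured in the data analysed here.

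High coverage was also present at AXL and F3, from the list of further target genes, which were chosen after their values were seen. Peaks covered 71.7% of AXL, a receptor tyrosine kinase gene, and its flanks (97.8th percentile by percent covered), and 47.4% of F3, which encodes tissue factor (93.5th). The strongest ratio at F3 was 2.87, below the median of the whole list, and that at AXL was 3.80.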
